A study of Mus musculus with 4 samples.

Results

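The genes described here encode antimicrobial proteins of skin, together with the secreted protease inhibitor Slpi. The set holds 10 of the 56953 genes in the count table, which are Defb1, Defb3, Defb4, Defb6, Defb14, Slpi, Lcn2, Pglyrp1, Pglyrp3 and Pglyrp4. They were chosen by name with the read counts and fold changes of NEDD8i against DMSO in these same libraries already known. Their values in that comparison are therefore a description, and no test of them is used as support.

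RNA came from dorsal skin of wild type C57BL/6J mice, taken at full thickness per the labels after topical treatment lasting 3 days. The treated skin was given 10 µM NEDD8i, a code for a compound the labels do not name further; NEDD8 itself is a small protein that cells attach to other proteins, such as cullins. Control skin was given DMSO. Both groups shared the strain, genotype, site and duration, and each gave 2 libraries made by a method that reads the 3′ end of polyadenylated transcripts. The labels give no age and do not tie replicates to separate mice, so p-values measure the spread between these libraries, which may be technical.

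Totals were 8856572 and 8833217 counts in NEDD8i replicates 1 and 2, and 5955627 and 5639791 in DMSO replicates 1 and 2. Of these, 52.6% to 61.7% fell on 3 ribosomal RNA genes. Levels of genes are given as CPM, the usual read counts relative to library size, scaled with TMM factors. Sums over marker lists are given as CPM of the reads outside ribosomal RNA. Of the labelled tissue, all 10 listed markers of basal and spinous keratinocytes, such as Krt14 and Krt10, had enough reads to be tested. Endothelial markers were nearly absent, at 0.874 to 5.33 CPM of those reads.

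Beta-defensins are small cationic peptides, folded by disulfide bonds, that epithelial cells secrete and that damage microbial membranes. Some are made all the time and others are switched on by wounding, microbes or cytokines of the IL-1, IL-17 and EGF receptor pathways. Slpi inhibits neutrophil elastase and cathepsin G through whey acidic protein (WAP) domains and also kills microbes. Lcn2 (lipocalin 2) binds bacterial iron carriers, and the Pglyrp proteins recognise bacterial peptidoglycan.

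After NEDD8i, transcripts of Slpi, Defb14 and Defb1 were higher in both libraries than in either DMSO library. The same held for Defb6 and, at a few reads, for Defb3 and Defb4, which makes 6 of the 10 members. It held for 25.0% of all genes with enough reads to be tested. Slpi was not detected in DMSO skin, Defb14 was barely detected there, and Defb1 averaged 121 ± 4.47 CPM after NEDD8i against 18.2 ± 8.60 CPM in DMSO (SD, n = 2 each). Defb6 and Pglyrp4 were present in every library and differed less between the groups. The other 5 genes, Defb3, Defb4, Lcn2, Pglyrp1 and Pglyrp3, had at most 7 reads in any library. In RNA from whole tissue, more transcript per cell and more cells of a producing type cannot be told apart.

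**Figure D1:**
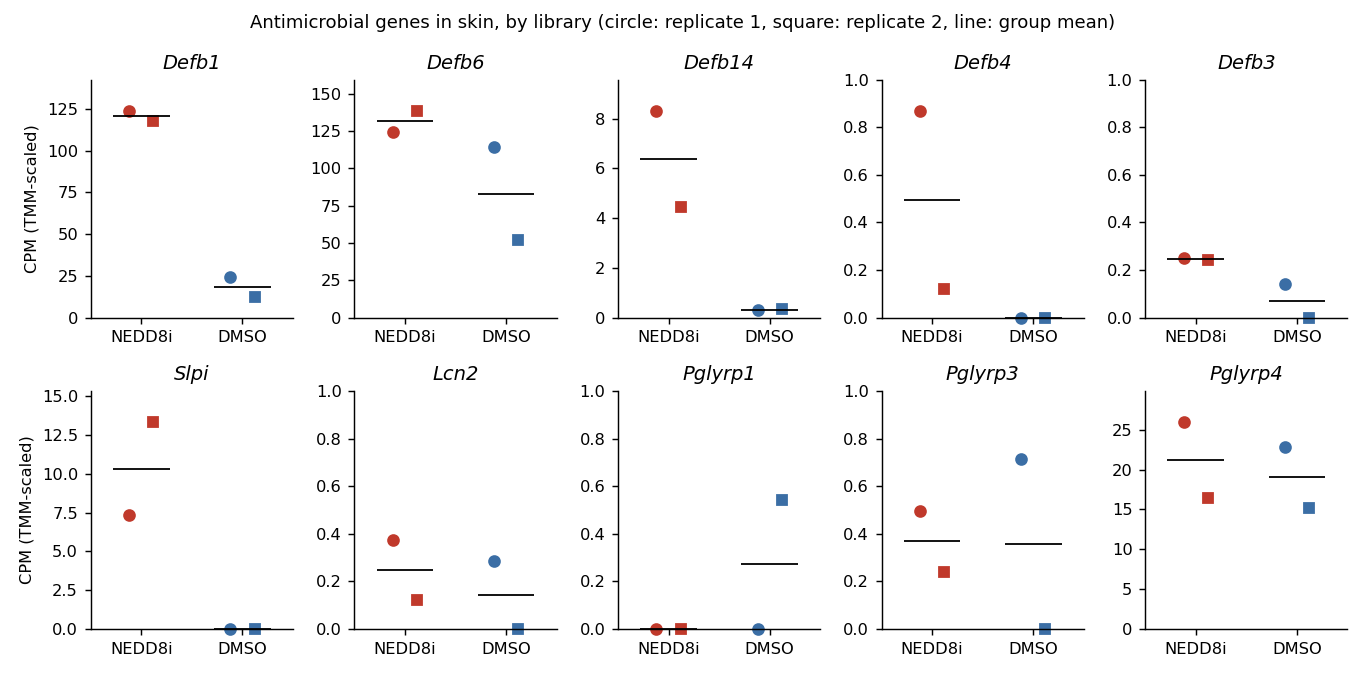
Level of each of the 10 genes in each library, in CPM on axes that start at 0 and differ between panels, with NEDD8i left of DMSO and a line at each group mean. Defb1, Defb14 and Slpi stand clearly higher in both NEDD8i libraries, Pglyrp4 overlaps between the groups, and 5 panels stay below 1 CPM.

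The filter on low counts, which asked for about 10 reads in at least 2 libraries, was passed by 5 of the 10 members, and of these 5 genes 3 were called higher and 0 lower in edgeR's quasi-likelihood test. A call means an adjusted p under 0.05, adjusted over all 11388 tested genes. Over those genes 0.667% were called higher, 0.114% lower and 0.782% in either direction. At an unadjusted p under 0.05 there were 1877 of the 11388 genes. DESeq2 called 3.58% of its tested genes in either direction, and limma-voom 0.237%. Counts given for lists of genes further on are to be read beside these values. Slpi and Defb14 passed the filter through their NEDD8i counts alone, so that a difference was needed for them to be tested at all. Both NEDD8i libraries lay above both DMSO libraries for 4 of the 5 tested members, as they did for 25.0% of all tested genes. Because the members were chosen on this contrast, nothing is read from either count of members. The median log2 fold change of all tested genes was -0.003.

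Defb1 (ENSMUSG00000044748.9, chromosome 8, 22266615 to 22285201, plus strand) encodes a beta-defensin that epithelia make without induction. It had 997 and 978 reads in NEDD8i replicates 1 and 2, against 170 and 67 in DMSO replicates 1 and 2. These counts correspond to 123.8 and 117.5 CPM after NEDD8i and to 24.3 and 12.1 CPM in DMSO. The NEDD8i libraries nearly coincided, differing 1.05-fold, while the DMSO libraries differed 2.0-fold. The log2 fold change was 2.72 (SE 0.38), 6.60-fold, with the groups well apart. Gene coordinates are taken to be on GRCm39 unless GRCm38.p6 is named. The fold change lay between 2.33 and 3.30 on the log2 scale when any 1 library was left out.

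Defb14 (ENSMUSG00000046354.4, chromosome 8, 19244373 to 19245228, plus strand) encodes the mouse counterpart of human beta-defensin 3, an inducible peptide of keratinocytes. It had 67 and 37 reads in NEDD8i replicates 1 and 2, against 2 and 2 in DMSO replicates 1 and 2. Its level was 8.32 and 4.45 CPM after NEDD8i, against 0.286 and 0.362 CPM in DMSO. From the summed counts it was 19.9 times as abundant after NEDD8i (95% counting interval 7.53 to 74.3). The fitted log2 fold change was 4.24 (SE 0.73). Without NEDD8i replicate 1, which held most of its reads, the fitted value was 3.73 and the gene was no longer called.

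Defb6 (ENSMUSG00000050756.4, chromosome 8, 19275494 to 19278225, plus strand) encodes a beta-defensin known from mouse skeletal muscle and airway. It had 1003 and 1153 reads in NEDD8i replicates 1 and 2, against 798 and 285 in DMSO replicates 1 and 2. In CPM these were 124.6 and 138.5 after NEDD8i and 114 and 51.6 in DMSO. Both NEDD8i libraries were higher, but DMSO replicate 1 lay close below them and the DMSO libraries differed 2.21-fold. The log2 fold change was 0.67 (SE 0.39) and was not called. Without DMSO replicate 1 it was 1.34, and without DMSO replicate 2 it was 0.22. The size of the Defb6 difference thus rested on which DMSO library was kept.

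Defb4 and Defb3 encode peptides that mouse epithelia induce on infection. Defb4 (chromosome 8, 19248722 to 19251561, plus strand) had 7 and 1 reads in NEDD8i replicates 1 and 2 and 0 in both DMSO libraries. Of its 8 reads 7 came from NEDD8i replicate 1, so no fold is given. Defb3 (chromosome 8, 19343376 to 19345307, plus strand) had 2 reads in each NEDD8i library, against 1 and 0 in DMSO replicates 1 and 2, which makes the ratio 3.06 (95% counting interval 0.303 to 151). The interval of Defb3 holds 1, so no direction was detectable. Such intervals and limits cover counting error alone and leave out the spread between libraries. They may be too narrow even for counting error, since PCR copies of a molecule may be counted more than once.

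The make-up of the beta-defensin reads differed between the groups in a way that does not depend on how libraries are scaled. Defb1 made up 48.0% and 45.1% of the reads of the 5 listed beta-defensins in NEDD8i replicates 1 and 2 (exact 95% binomial intervals 45.9 to 50.2 and 42.9 to 47.2). In DMSO replicates 1 and 2 its share was 17.5% and 18.9% (15.2 to 20.1 and 14.98 to 23.4). Defb6 held 48.3% and 53.1% after NEDD8i, against 82.2% and 80.5% in DMSO. Defb14 held 3.23% and 1.70% after NEDD8i, against 0.206% and 0.565% in DMSO.

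Within a library there were 0.994 and 0.848 Defb1 reads per Defb6 read after NEDD8i, against 0.213 and 0.235 in DMSO. The group means were 0.921 ± 0.103 and 0.224 ± 0.0156 (SD, n = 2 each), a 4.11-fold difference. The DMSO libraries differed 2.0-fold and 2.21-fold in the CPM of Defb1 and Defb6, but their ratios lay within each other's counting intervals. The NEDD8i ratios did not, with intervals of 0.910 to 1.09 in replicate 1 and 0.778 to 0.925 in replicate 2. Counting intervals thus leave out part of the spread between libraries. A ratio of this kind describes the pair in these libraries, both genes being chosen with their values known. It does not show that either gene stayed the same. Pglyrp4, by contrast, had 0.208 and 0.119 reads per Defb6 read after NEDD8i and 0.201 and 0.295 in DMSO, so that the groups overlapped.

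**Figure D2:**
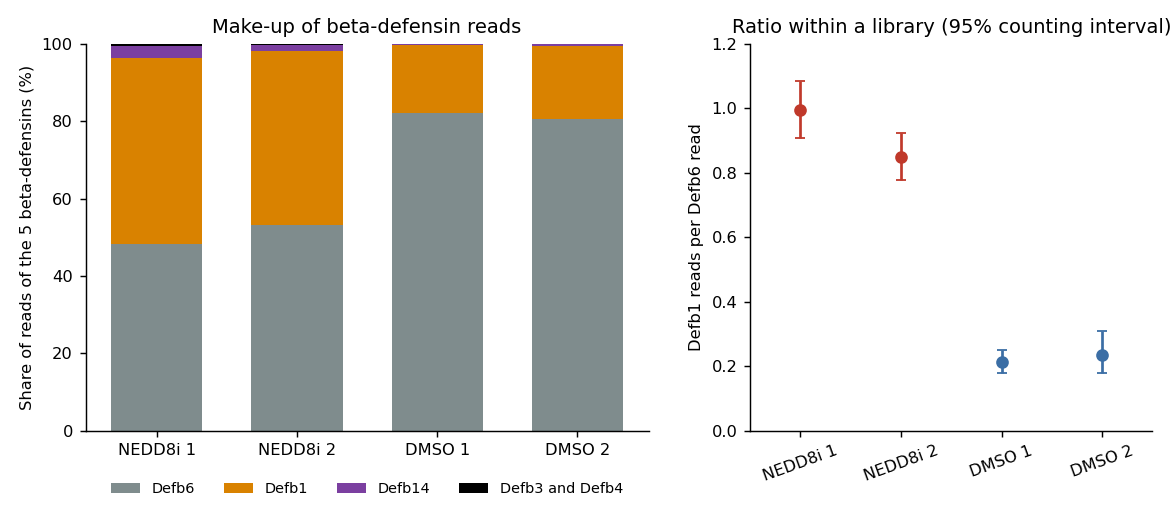
Left, share of reads from each of the 5 listed beta-defensins by library, in percent; right, Defb1 reads per Defb6 read with exact 95% counting intervals. The Defb1 share is 45.1% to 48.0% in the NEDD8i libraries and 17.5% to 18.9% in the DMSO libraries. The intervals of the ratio do not meet between the groups, but they cover counting error alone and not the spread between libraries.

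Defb14, Defb4, Defb6 and Defb3 sit in one cluster on chromosome 8, from 19244373 to 19345307, a stretch of 101 kb with 8 annotated genes. Defb14 and Defb6 lie 30.3 kb apart there, with Defb4 between them, and Defb14 was called while Defb6 was not, a difference that was not itself tested. Defb5, in the same cluster, had 0 and 3 reads after NEDD8i and 0 and 2 in DMSO, and 3 genes of the cluster had no read. Defb1 stands 2.92 Mb away on the same chromosome. Among all annotated genes 42 carry a Defb number, 24 of them on chromosome 8. Of these 42, 34 had no read in any library and 3 were tested, which are Defb1, Defb6 and Defb14. Beta-defensin genes are related copies, and the sources do not say how reads matching more than 1 of them were counted, so the reads of single beta-defensins are uncertain to that extent. Strand use in counting is likewise not given.

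RefSeq promoter sequence (GRCm38.p6) was matched for 5 of the 10 members, Defb3, Defb6, Slpi, Lcn2 and Pglyrp1. The upstream 250 bases of Defb3 and Defb6 are shown because both genes lie in one cluster and their sequences are alike, while their reads differ widely over exons of like summed length (275 bases in Defb3, 323 in Defb6). Defb3 is at chr8:19293111-19293360 and Defb6 at chr8:19225228-19225477, both on the plus strand. Capitals mark the longest run the sequences share, 40 bases.
Defb3: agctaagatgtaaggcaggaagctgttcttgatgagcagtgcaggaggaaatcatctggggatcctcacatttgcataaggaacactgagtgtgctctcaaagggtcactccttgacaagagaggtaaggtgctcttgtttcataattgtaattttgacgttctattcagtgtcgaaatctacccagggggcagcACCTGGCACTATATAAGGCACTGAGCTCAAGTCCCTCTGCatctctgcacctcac
Defb6: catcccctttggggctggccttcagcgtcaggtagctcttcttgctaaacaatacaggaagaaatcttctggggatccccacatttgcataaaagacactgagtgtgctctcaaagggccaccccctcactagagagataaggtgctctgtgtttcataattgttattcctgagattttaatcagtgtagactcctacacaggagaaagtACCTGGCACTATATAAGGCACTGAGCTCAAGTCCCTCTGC

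In an alignment with gaps allowed and ends free, 192 of 235 aligned bases (81.7%) were identical between the Defb3 and Defb6 sequences. The other pairs of matched promoters shared runs of at most 10 bases. Defb6 nevertheless had 1003 and 1153 reads after NEDD8i and Defb3 2 and 2. These windows are sequence upstream of the annotated starts and were not measured here.

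The upstream sequence of Slpi is shown as that of the tested member with no read in DMSO, at chr2:164356508-164356757 on the minus strand. Capitals mark a match to a C/EBP motif.
Slpi: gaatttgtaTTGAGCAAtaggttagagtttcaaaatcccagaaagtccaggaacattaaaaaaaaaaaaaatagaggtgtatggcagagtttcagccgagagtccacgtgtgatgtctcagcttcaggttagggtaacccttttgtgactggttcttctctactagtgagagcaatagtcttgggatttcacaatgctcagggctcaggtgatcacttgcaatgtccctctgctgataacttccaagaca

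Motifs were searched on both strands of the 250 upstream bases. C/EBP (TTGCNNAA) matched Defb3, Defb6, Slpi and Lcn2, and 9.56% of all 32851 promoters held it. NF-kB, searched as its consensus motif, matched Defb6 and Pglyrp1, and 7.25% of all promoters held it. AP-1 (TGANTCA, in 6.75% of promoters) and STAT (TTCNNNGAA, in 7.02%) matched none of the 5. No match overlapped another. A match is a description of letters in this window, and nothing about binding was measured.

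Slpi (ENSMUSG00000017002.15, chromosome 2, 164195990 to 164198427, minus strand) had 59 and 111 reads in NEDD8i replicates 1 and 2 and 0 reads in both DMSO libraries. The level was 7.33 and 13.3 CPM after NEDD8i, whereas 0 reads allow up to 0.429 and 0.543 CPM in DMSO replicates 1 and 2. Every NEDD8i value was thus above the limit of detection in DMSO. Set against 3 counts, the limit that 0 reads in the DMSO libraries together allow, Slpi was at least 43.3-fold higher. The NEDD8i libraries differed 1.82-fold, with the larger count in replicate 2, the opposite order to Defb14. Slpi remained called with any 1 library left out.

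The nearest tested genes around Slpi were not called. Wfdc5, 171 kb away, had 93 and 61 reads after NEDD8i and 60 and 48 in DMSO, and the matrix gene Matn4, 32.9 kb away on the other side, had 66 and 63 reads after NEDD8i and 19 and 23 in DMSO. Other genes with WAP domains were counted in a list of 20, which also held the Kazal-type inhibitor Spink5 and the Kunitz-type Spint4. Of this list 4 were tested, 0 were called in either direction by edgeR, DESeq2 or limma-voom (1 at an unadjusted p under 0.05), and 10 had no read. The median log2 fold change was -0.06.

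The members of that list did not move as one. Spink5, which inhibits kallikreins of the stratum corneum, had 4812 and 8386 reads after NEDD8i and 3999 and 7366 in DMSO, with the groups overlapping (log2 fold change -0.25, SE 0.46; 0.51 without DMSO replicate 2). Wfdc21 had 42 and 92 reads after NEDD8i, against 935 and 144 in DMSO (log2 fold change -3.29, SE 0.97, edgeR adjusted p = 0.228). Wfdc3, named after its values were seen, had 276 and 439 reads after NEDD8i, against 14 and 115 in DMSO (log2 fold change 1.95, SE 1.19, edgeR adjusted p = 0.534). Both were spread widely between the DMSO libraries. Wfdc21 stood at -1.69 without DMSO replicate 1 and -4.01 without DMSO replicate 2, and Wfdc3 at 1.05 and 4.45.

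The proteases that Slpi inhibits in neutrophils were not seen. Elane (neutrophil elastase) and Ctsg (cathepsin G) had no read in any library. Among 14 listed protease targets and partners of Slpi, 4 were tested and 0 were called by edgeR, with a median log2 fold change of -0.03. At an unadjusted p under 0.05 there was 1, the kallikrein gene Klk5, and DESeq2 called 1 lower and limma-voom 0. Klk5 had 74 and 84 reads after NEDD8i, against 173 and 178 in DMSO. Klk5 stood at -1.56 on the log2 scale (SE 0.33), and edgeR gave it an adjusted p of 0.0699. It was named after its values were seen. Anxa2, which binds Slpi at the cell surface of macrophages, had 14242 and 12763 reads after NEDD8i and 5389 and 7921 in DMSO. Its log2 fold change was 0.58 (SE 0.38), and 0.19 and 1.12 without DMSO replicate 1 or 2. Klk7, a kallikrein that sheds corneocytes, stood at 0.35 (SE 0.32).

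Pglyrp4 (ENSMUSG00000042250.14, chromosome 3, 90634213 to 90648824, plus strand) encodes a peptidoglycan recognition protein secreted by epithelia. It had 209 and 137 reads in NEDD8i replicates 1 and 2, against 160 and 84 in DMSO replicates 1 and 2. The levels were 25.9 and 16.5 CPM after NEDD8i and 22.9 and 15.2 CPM in DMSO, and the groups overlapped. The log2 fold change was 0.15 (SE 0.36), not called, and its sign turned to -0.19 without NEDD8i replicate 1, -0.09 without DMSO replicate 2 and -0.10 with library sizes alone.

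Pglyrp3, Pglyrp1 and Lcn2 were near the limit of detection. Pglyrp3 (chromosome 3, 91921890 to 91938889, plus strand), the other epithelial member of the family, had 4 and 2 reads after NEDD8i and 5 and 0 in DMSO, which makes the ratio 0.917 (95% counting interval 0.233 to 3.80). Its span overlaps the pseudogene Mif-ps3, which had 5 and 15 reads after NEDD8i and 3 and 2 in DMSO. Pglyrp1 (chromosome 7, 18618605 to 18624366, plus strand), stored in neutrophil granules, had 0 reads after NEDD8i and 0 and 3 in DMSO. Lcn2 (chromosome 2, 32274645 to 32277809, minus strand), made by neutrophils and by inflamed epithelia, had 3 and 1 reads after NEDD8i and 2 and 0 in DMSO, which makes the ratio 1.53 (95% counting interval 0.219 to 16.9). A difference in these 3 genes was not detectable at this depth.

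Partners of Lcn2 gave no call either. Of 10 listed genes for its receptors, partners and iron handling, 5 were tested and 0 were called by edgeR, DESeq2 or limma-voom (2 at an unadjusted p under 0.05), with a median log2 fold change of -0.39. The ferritin heavy chain gene Fth1 stood at 0.60 (SE 0.34) and the transferrin receptor gene Tfrc at -0.02 (SE 0.31), which was 0.11 without DMSO replicate 2 and 0.0056 with no filter on low counts.

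The calls of 3 members rested on the settings in part. With library sizes alone Defb1 stood at 2.46 and Defb14 at 4.02, and neither was called. Slpi and Defb14 were not called by limma-voom, nor was Defb14 without the robust option of edgeR. The direction of these 3 members was the same in all 14 alternatives. For each of them both NEDD8i libraries lay above both DMSO libraries, so leaving out a library could not have reversed the direction.

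**Figure D3:**
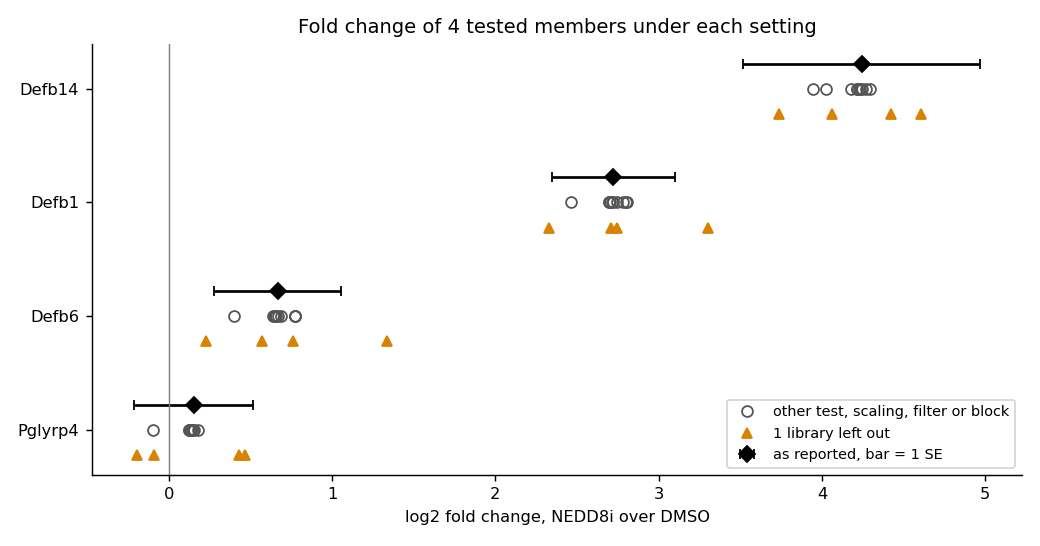
Log2 fold change of NEDD8i over DMSO for 4 of the 5 tested members as reported (diamond, bar 1 SE), under other tests, scalings, filters and blocks (circles) and with 1 library left out (triangles). Slpi is left out because a fitted fold against no reads depends on the prior count. Defb14 and Defb1 stay between 2.33 and 4.6 throughout, while Pglyrp4 lies on both sides of 0.

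Genes whose levels over the 4 libraries were closest to a member's were found by the distance between centred log2 CPM profiles, among 11387 other tested genes. For Defb1 these were Has3 (distance 0.144), Cd248 (0.196) and Fhl2 (0.206). For Defb6 they were Fbxo42 (0.0510), Jmjd6 (0.0524) and Gdap2 (0.0829). For Pglyrp4 they were Rpl18 (0.0436), Zdhhc5 (0.0496) and Rps27l (0.0557). Has3, a hyaluronan synthase, had 10.6 and 9.73 CPM after NEDD8i and 2.001 and 0.724 CPM in DMSO. With 4 libraries in 2 groups, such likeness is a description.

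Among other antimicrobial proteins S100a8 and Adm rose. Of 33 listed genes, 32 were in the table, 16 had no read, 9 were tested, and edgeR called 2 higher and 0 lower (6 at an unadjusted p under 0.05). DESeq2 called 3 higher and 1 lower, and limma-voom called 0. The median log2 fold change was 0.24. S100a8, a calprotectin subunit that withholds metal ions from microbes, had 558 and 424 reads after NEDD8i, against 110 and 49 in DMSO (log2 fold change 2.28, SE 0.37, edgeR adjusted p = 0.0347). Adm, which encodes adrenomedullin, a vasodilator peptide with antimicrobial activity, had 100 and 141 reads after NEDD8i, against 12 and 8 in DMSO (log2 fold change 3.19, SE 0.45, edgeR adjusted p = 0.0184). S100a8 was not called without NEDD8i replicate 1 (2.06), by limma-voom (2.30), with library sizes alone (2.03) or without the robust option, and Adm was not called without NEDD8i replicate 2 (2.94) or by limma-voom (3.12).

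Other genes of this list missed the threshold. S100a9, the partner of S100a8, had 388 and 237 reads after NEDD8i, against 3 and 31 in DMSO (log2 fold change 3.71, SE 1.05, edgeR adjusted p = 0.206). Retnla, which encodes the resistin-like molecule alpha of mouse skin, had 27 and 37 reads after NEDD8i, against 2 and 0 in DMSO, which makes the ratio 24.5 (95% counting interval 6.50 to 206). Hrnr, which held the most reads of the list, was lower after NEDD8i, with 221 and 388 reads against 850 and 715 in DMSO. Hrnr stood at -1.76 on the log2 scale (SE 0.34), and edgeR gave it an adjusted p of 0.0548. Of the 9 tested genes of the list, 6 stood above 0 and 3 below it. S100a9, Retnla and Hrnr were named after their values were seen. Without DMSO replicate 1 or 2, S100a9 stood at 2.75 and 6.45, and Retnla at 7.84 and 3.72. The cathelicidin gene Camp and Reg3g had no read in any library. Of 21 further beta-defensins listed, 19 had no read and 0 were tested.

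Among the signals known to induce such genes, Il24 and Tgfa rose. Of 20 listed cytokines and EGF receptor ligands, 11 were tested, and edgeR called 2 higher and 0 lower (6 at an unadjusted p under 0.05), DESeq2 3 and 0, and limma-voom 1 and 0. The median log2 fold change was 0.60. Il24, a cytokine of the IL-20 group that acts on keratinocytes, had 91 and 122 reads after NEDD8i, against 0 and 2 in DMSO (edgeR adjusted p = 0.0157). From the summed counts it was 81.4 times as abundant (95% counting interval 22.3 to 677). Tgfa, a ligand of the EGF receptor, had 282 and 324 reads after NEDD8i, against 50 and 24 in DMSO (log2 fold change 2.67, SE 0.36, edgeR adjusted p = 0.0162). Il24 was not called by limma-voom, nor Tgfa with library sizes alone (2.43). Il17a, Il17c and Il22, cytokines that induce beta-defensins and Lcn2 in skin, had no read in any library. Whether any of these signals bears on the levels of Slpi, Defb1 and Defb14 was not tested.

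Of 28 listed receptors and transcription factors upstream, 26 were tested, and edgeR called 2 higher and 0 lower (11 at an unadjusted p under 0.05), DESeq2 6 and 0, and limma-voom 2 and 0. The median log2 fold change was 0.66. Bcl3, a nuclear IkB protein, had 774 and 676 reads after NEDD8i, against 78 and 82 in DMSO (log2 fold change 2.77, SE 0.31, edgeR adjusted p = 0.00939). Ehf, an epithelial ETS factor, had 799 and 1218 reads after NEDD8i, against 105 and 126 in DMSO (log2 fold change 2.70, SE 0.35, edgeR adjusted p = 0.0162). Both remained called in all 14 alternatives. Nfkbiz, the IkB zeta gene that IL-17 uses to switch on beta-defensins and Lcn2, stood at 0.67 (SE 0.37, edgeR adjusted p = 0.420) and was named after its values were seen. A link of these receptors and factors to the members was not tested.

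Sensors of microbes and their signalling partners gave no call in edgeR. Of 20 listed, 9 were tested, with 3 at an unadjusted p under 0.05 and a median log2 fold change of 0.44. DESeq2 called 2 higher and limma-voom 0. Tnfrsf1a, a TNF receptor gene, stood at 0.92 (SE 0.29, edgeR adjusted p = 0.175), and at 0.76 and 1.10 without DMSO replicate 1 or 2. Myd88, the adaptor of Toll-like receptors, stood at 1.18 (SE 0.29, edgeR adjusted p = 0.0993), and at 1.09 and 1.28 without DMSO replicate 1 or 2. Nod2, which senses a peptidoglycan fragment inside cells, was named after its values were seen. It had 68 and 84 reads after NEDD8i and 5 and 15 in DMSO (log2 fold change 2.47, SE 0.61, edgeR adjusted p = 0.103). Without DMSO replicate 1 or 2, Nod2 stood at 1.75 and 3.69. Of 5 listed receptors for defensins and the CCR6 ligand Ccl20, 3 were tested and 0 called by edgeR, DESeq2 or limma-voom (2 at an unadjusted p under 0.05), with Ccl20 at 1.45 (SE 0.49), Mc5r at 0.81 (SE 0.58) and a median of 1.45.

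**Figure D4:**
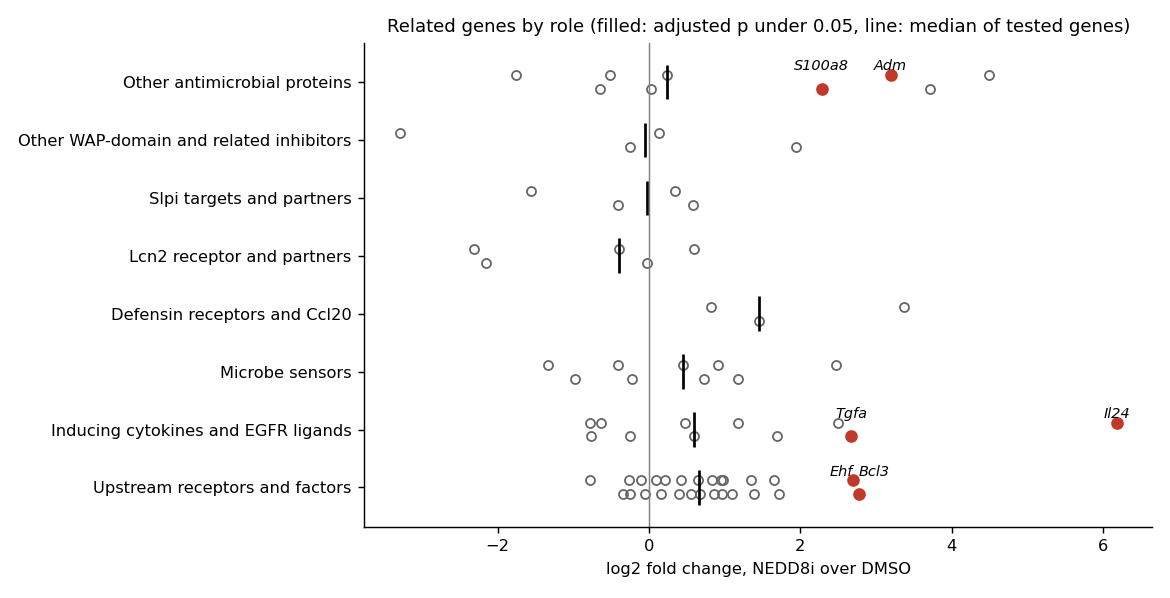
Log2 fold change of NEDD8i over DMSO for the tested genes of 8 lists of related genes, with filled points for genes past an adjusted p of 0.05 and a line at each list's median. The 6 filled points are Adm, S100a8, Il24, Tgfa, Bcl3 and Ehf, all to the right of 0.

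Markers of cells that could carry these transcripts moved with the groups in part. Neutrophil markers, of which S100a8 and S100a9 held most reads, summed to 294 and 215 CPM of the reads outside ribosomal RNA after NEDD8i, against 47.5 and 57.7 in DMSO. Of the 17 listed, 8 had no read in any library, including the defining genes Ly6g, Mpo and Ngp, and keratinocytes also express S100a8 and S100a9. Of these markers 5 were tested, and S100a8 was the one called by edgeR, while DESeq2 called 1 and limma-voom 0. Cxcr2, named after its values were seen, had 75 and 44 reads after NEDD8i and 11 and 33 in DMSO. Macrophage markers summed to 96.0 and 77.2 after NEDD8i and 65.5 and 44.2 in DMSO, with 0 of 5 tested called by edgeR, DESeq2 or limma-voom (1 at an unadjusted p under 0.05). The monocyte gene Cd14, which lies in both this and the sensor list, had 67 and 5 reads after NEDD8i and 0 in both DMSO libraries. The part of these cells in the levels of Slpi, Defb1 and Defb14 was not tested.

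Keratinocyte markers separated by state in part. Wound keratinocyte markers summed to 15070 and 17440 after NEDD8i, against 1442 and 1662 in DMSO, with 6 of 10 tested called higher and 0 lower by edgeR (8 at an unadjusted p under 0.05), 8 and 0 by DESeq2, and 5 and 0 by limma-voom. The cornified envelope gene Sprr1a had 19060 and 21960 reads after NEDD8i, against 1117 and 871 in DMSO (log2 fold change 3.98, SE 0.36, edgeR adjusted p = 0.0039). Granular layer markers summed to 2139 and 2791 after NEDD8i and 4149 and 3480 in DMSO, with 0 of 9 called higher by edgeR, DESeq2 or limma-voom, 6 at an unadjusted p under 0.05, and 2, 4 and 1 called lower by these tools. The edgeR calls were Lor at -3.05 (SE 0.51, edgeR adjusted p = 0.0377) and Flg2 at -3.69 (SE 0.44, edgeR adjusted p = 0.0128). Of the 9 tested, 7 stood below 0 and 2 above it. Those above were Ivl at 0.64 (SE 0.32) and Klk7, which held the most reads of the list, at 0.35 (SE 0.32). Lor was not called by limma-voom, with library sizes alone, without the robust option, or without NEDD8i replicate 1 (-2.90) or 2 (-3.20), whereas Flg2 was called in all 14 alternatives. Basal and spinous markers summed to 19130 and 18160 after NEDD8i and to 15840 and 30280 in DMSO, with 0 of 10 called by edgeR, DESeq2 or limma-voom (1 at an unadjusted p under 0.05). Whether the state of the keratinocytes bears on the members was not tested. The wound list was known to be high from earlier results of these libraries, so it is not independent evidence.

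Dermal fibroblast genes were mostly higher after NEDD8i. Of 6 tested, Col1a1, Col1a2, Col3a1, Dpt and Fbn1 were higher in both NEDD8i libraries than in either DMSO library, and the list's median log2 fold change was 2.36. Over all tested genes 25.0% were separated in this way. These 5 fibroblast genes had an unadjusted p under 0.05, as had 1877 of all 11388 tested genes. Of the list edgeR called 1 higher and 0 lower, DESeq2 2 and 0, and limma-voom 0. Col1a2, a collagen gene, had 53 and 138 reads after NEDD8i, against 14 and 14 in DMSO, and was not called by edgeR. The summed level was 90.8 and 215 after NEDD8i and 143 and 21.4 in DMSO, an overlap that came from Dcn, which held 345 of the 403 fibroblast reads of DMSO replicate 1. Col1a2 was chosen after its values were seen, and whether fibroblast content bears on the members was not tested.

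The fibroblast gene called by edgeR was Dpt, with 56 and 73 reads after NEDD8i and 7 and 3 in DMSO (log2 fold change 3.29, SE 0.58, edgeR adjusted p = 0.0446). Dpt was not called by limma-voom, with library sizes alone, without the robust option, with ribosomal RNA genes left out, or without NEDD8i replicate 1 (3.47) or 2 (3.11). The sums of sebaceous gland and skeletal muscle markers overlapped between the groups. Sebaceous gland markers summed to 446 and 759 after NEDD8i and 494 and 523 in DMSO, and skeletal muscle markers to 58.6 and 79.0 after NEDD8i and 50.3 and 64.7 in DMSO. Of these lists 8 and 7 genes were tested and 0 were called by edgeR, DESeq2 or limma-voom, with 2 and 0 at an unadjusted p under 0.05.

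DMSO replicate 1 stood apart by its hair genes. Hair shaft and inner root sheath markers summed to 53.1 and 1145 CPM of the reads outside ribosomal RNA in NEDD8i replicates 1 and 2, and to 18690 and 67.8 in DMSO replicates 1 and 2. Of 19 tested hair genes 0 were called by edgeR, DESeq2 or limma-voom, and 0 had an unadjusted p under 0.05. Defb1, Defb6 and Pglyrp4 were also higher in DMSO replicate 1 than in DMSO replicate 2, by 2.0, 2.21 and 1.5 times in CPM. In the NEDD8i libraries, whose hair reads differed as well, Defb1, Defb6 and Pglyrp4 differed 1.05-fold, 1.11-fold and 1.58-fold, and Defb14 and Slpi 1.87-fold and 1.82-fold. Whether hair content bears on these levels was not tested. Without DMSO replicate 1 the log2 fold change was 3.30 for Defb1, 1.34 for Defb6 and 0.47 for Pglyrp4.

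**Figure D5:**
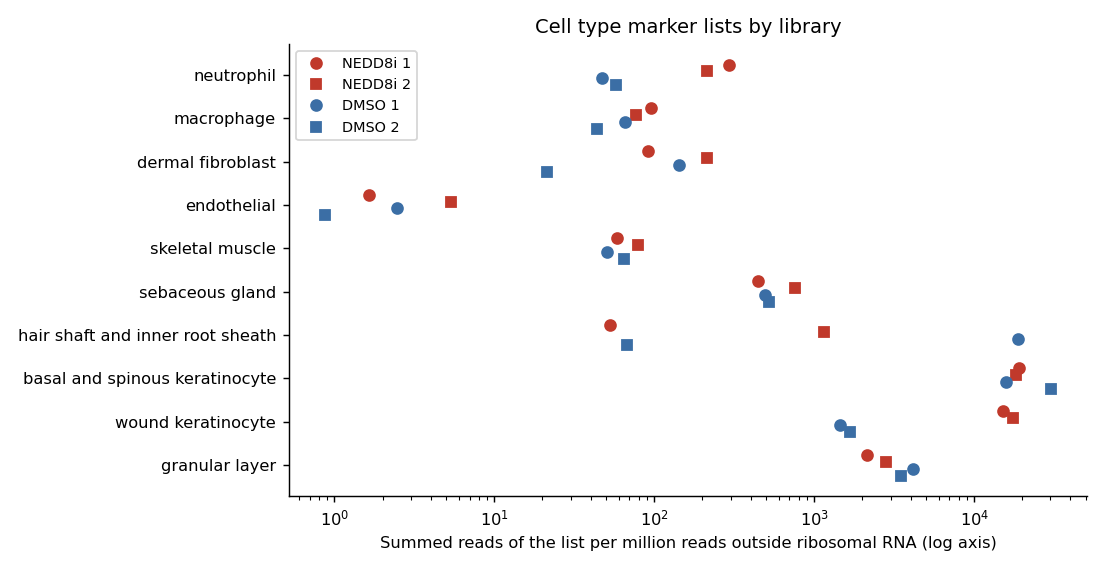
Summed levels of 10 marker lists, in CPM of the reads outside ribosomal RNA, by library, on a log axis, with NEDD8i in red and DMSO in blue. Hair markers reach 18690 in DMSO replicate 1 and lie at 53.1 to 1145 in the others, whereas wound keratinocyte markers separate the groups.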

How the data were processed

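Raw counts of reads for each gene in 4 QuantSeq 3′ libraries were deposited by the authors in 1 table. STAR, featureCounts, DESeq2, GRCm38 and GRCm39 are named in the submitters' processing notes, while settings, strand use and the treatment of reads matching several genes are not given in the sources used here. Of 52029 gene IDs shared with GENCODE M21 (GRCm38), 2.70% agreed in start position, and the table's coordinates are taken to be GRCm39. All sample columns were used.

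Counts were tested in R 4.3.3 with edgeR 4.0.16 (filterByExpr with minimum count 10 and minimum total 15, TMM, robust quasi-likelihood test, group alone) across all genes, with Benjamini-Hochberg adjustment. Log2 CPM used a prior count of 2. Steps were tested on simulated data. The replicate deviations of the groups correlated at -0.13. With 2 libraries a group, this value cannot decide whether the replicate numbers pair samples.

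The members and lists were chosen with earlier results of these data known. From each of 19 lists, up to 4 called genes were named by smallest p, or up to 2 of the most abundant where none was called. Marker lists are given mainly as sums. The listed genes Chi3l1 and Krt85 were not analysed here. Alternatives were DESeq2 1.42.0, limma-voom (limma 3.58.1), other scalings and filters, blocks and each library left out.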

Additional observations from a re-analysis of the deposited data

How the results depend on the processing

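With 2 libraries a group, the number of called genes and of called members depended on the method. Against 89 genes, 387 were called with DESeq2, 27 with limma-voom, 47 with library sizes alone, 703 with no filter and 48 without the robust option. Leaving out 1 library gave 44 to 1358, and the lone library of a group is then assumed to vary like the others. Against 3 members called higher, 1 was called with limma-voom (Defb1) and 1 with library sizes alone (Slpi). No member was called lower in any alternative. Defb1 and Slpi were each called in 13 of 14 alternatives, Defb14 in 10 and Defb6 in 1. Library sizes alone moved the median of all genes to -0.22. Pglyrp4 was at -0.10 there, and between -0.19 and 0.47 with 1 library left out. Spink5 ranged from -0.74 to 0.51 and Tfrc from -0.14 to 0.11 with 1 library left out. Wfdc5 ranged from -0.22 to 0.40 there and was at -0.10 with library sizes alone, and Tfrc was at 0.0056 with no filter. With the replicate block 285 genes were called, and with a crossed replicate block, added after seeing the data, 483; Lor was lost under the first, and the same 3 members were called in both. Of 532 counts over the lists, 97 moved by more than 1.5 times or changed to or from 0. Depth limits Defb3, Defb4, Lcn2, Pglyrp1 and Pglyrp3, which had at most 7 reads in a library.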
